A study of Rattus norvegicus with 6 samples.

Results

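The genes described here are 6 extracellular matrix genes of rat H9c2 cells, 3 of fibrillar collagen (Col1a1, Col1a2 and Col3a1) and 3 of matrix glycoproteins (Fn1, Sparc and Postn). They were taken by their Ensembl identifiers, with no threshold on a measured value but with earlier results of these data known, and are 6 of the 26404 gene rows in the count files. H9c2 cells are myoblasts, a line long used in place of heart muscle cells, taken from the heart of rat embryos. RNA was sequenced from polyA libraries of 3 groups with 2 libraries each: cells given an empty vector, cells with the tail domain mutant of BMPR2 and cells with its kinase domain mutant. The design text describes the mutant cells as lacking the respective domain, and empty vector serves as the control of both. The labels do not say how the vector or mutants were introduced, whether a group was a clone or a pool, whether the cells kept their own Bmpr2, or whether the 2 libraries of a group came from separate cultures. P-values therefore measure the spread of these libraries alone, and that spread may be technical.

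BMPR2 is the type II receptor of bone morphogenetic proteins, a membrane kinase with an unusually long cytoplasmic tail that passes the signal to type I receptors and SMAD proteins. The related TGF-beta pathway is a classical inducer of matrix genes in heart and in cultured mesenchymal cells. The triple helix of collagen I holds 2 alpha 1 chains, encoded by Col1a1, and 1 alpha 2 chain, encoded by Col1a2, and the chain of collagen III, which assembles into the same fibrils, is encoded by Col3a1. Fibronectin (Fn1) binds integrins and collagen and helps matrix to assemble, while Sparc, which binds collagen, and periostin (Postn), which is prominent in remodelling connective tissue, are matricellular proteins.

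The names came with the identifiers and were not checked against an annotation, because of the 47357 genes in the RefSeq rat table used here 0 carry an Ensembl identifier. For the same reason the targeted gene Bmpr2, the 30 cell type markers and the 55 other genes of matrix assembly listed for this purpose were not analysed here. The labels were thus not checked against Bmpr2, nor the cell line against its markers. Total counts in genes ranged from 19116082 to 24936136 per library. The 6 genes had between 20472 and 1297541 counts in a library, for which the counting error is at most 0.699%. This is far below the gaps between replicates given below, except that of Sparc in empty vector, which was 1.004-fold. They were abundant in every library and all passed the filter on low counts, which left 12221 genes.

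RefSeq promoter entries, of the GRCr8 assembly and not of the Rnor_5.0 build behind the counts, were found by symbol for 3 of the 6 genes. They are shown to let a reader see which sequence motifs these promoters share, and a link between motifs and levels was not tested. Each stretch has 100 bases, written 5′ to 3′ on the strand of the gene, with motif matches in capitals. Positions are counted back from the start of the RefSeq gene model. The stretch of Col1a2 runs from base 250 to base 151 before that start, because its TATAAA lies there, and those of Postn and Sparc run from base 100 to base 1.
Col1a2 (GRCr8, chr4:33518307-33518406, plus strand): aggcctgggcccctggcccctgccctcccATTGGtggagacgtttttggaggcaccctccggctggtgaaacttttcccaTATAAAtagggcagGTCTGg
Postn (GRCr8, chr2:140677961-140678060, plus strand): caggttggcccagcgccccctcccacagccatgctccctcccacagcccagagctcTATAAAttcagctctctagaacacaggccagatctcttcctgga
Sparc (GRCr8, chr10:40038817-40038916, minus strand): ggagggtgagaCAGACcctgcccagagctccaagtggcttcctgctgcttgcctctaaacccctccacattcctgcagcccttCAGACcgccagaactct

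Both strands were searched over 250 bases before the start for TATAAA (the TATA box), for CCAAT, which reads ATTGG on the other strand, and for CAGAC, which reads GTCTG there. The search also took in GGCGCC, a core of GC-rich elements bound by SMAD proteins, and TGACTCA, the AP-1 element. TATAAA was found in Col1a2 and Postn, 170 and 44 bases before the start, and in 12.9% of all 33469 promoter entries. CAGAC, which holds the core letters of the SMAD binding element, was found in all 3 promoters and in 42.9% of all entries. In Col1a2 it stood 156 and 23 bases before the start, in Sparc 225, 89 and 17 bases and in Postn 166 bases. The start of the RefSeq model was not checked against the start of transcription, and with TATAAA so far before it in Col1a2 the match at 23 bases may lie within the transcript. Positions in Col1a2 are therefore not compared with those in the other genes. CCAAT was found only in Col1a2 of the 3, 221 bases before the start, and in 34% of all entries. GGCGCC and TGACTCA, found in 8.69% and 4.05% of all entries, had no match in these 3 windows. No match overlapped another. These matches describe letters and not sites of binding.

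Summed, the 6 genes held 10.8% and 9.73% of all gene counts in the empty vector libraries (replicates 1 and 2, in this order throughout). For the tail mutant libraries this share came to 12.3% and 4.86%, and for those of the kinase mutant to 8.97% and 12.3%. Tail mutant replicate 2 thus stood apart, with less of its counts in these genes than any of the other 5 libraries. In bulk libraries fewer cells with a high level and less RNA per cell cannot be told apart. Levels below are in CPM, the count scaled to a common library total, with TMM to correct for differences in library composition. Counts also scale with transcript length, so levels are compared between libraries and not between genes.

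Col1a1 (ENSRNOG00000003897) stood at 47798 and 44183 CPM in empty vector. Its tail mutant libraries had 59199 and 15494 CPM, and its kinase mutant libraries 39583 and 46919 CPM. The highest and the lowest of the 6 libraries were thus the replicates of the tail mutant, 3.82-fold apart, and all groups overlapped.

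Col1a2 (ENSRNOG00000011292), which encodes the partner chain of collagen I, stood at 10534 and 9096 CPM in empty vector. It had 15658 and 5239.9 CPM with the tail mutant, and 11926 and 17734 CPM with the kinase mutant. The tail mutant again enclosed empty vector, with a 2.99-fold gap between its replicates, while both kinase mutant libraries lay above both empty vector libraries.

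Col3a1 (ENSRNOG00000003357) varied most of the 6 genes. Its empty vector libraries had 16557 and 14255 CPM, its tail mutant libraries 13303 and 1689 CPM, and its kinase mutant libraries 7881 and 20034 CPM. Both tail mutant libraries lay below both empty vector libraries, replicate 1 narrowly and replicate 2 by far. The kinase mutant libraries lay on either side of empty vector, 2.54-fold apart. Between its lowest and highest library Col3a1 spanned 11.9-fold.

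Fn1 (ENSRNOG00000014288), by contrast, spanned 2.0-fold. It stood at 19602 and 24106 CPM in empty vector. With the tail mutant it had 32799 and 18879.5 CPM, and with the kinase mutant 29861.5 and 37772 CPM. Both kinase mutant libraries lay above both empty vector libraries, and the tail mutant libraries lay on either side of empty vector.

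Sparc (ENSRNOG00000012840) stood at 3599.7 and 3613 CPM in empty vector, almost the same level, and spanned 2.19-fold over the 6 libraries. Its tail mutant libraries had 4698 and 2564 CPM and its kinase mutant libraries 3846 and 5609 CPM. Tail mutant replicate 1 was above and replicate 2 below empty vector, and both kinase mutant libraries were above it.

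Postn (ENSRNOG00000012660) was the one gene of the 6 whose empty vector replicates were far apart, at 1967 and 1046 CPM. The tail mutant libraries stood at 1687.5 and 989 CPM and the kinase mutant libraries at 2715 and 3619.9 CPM. The kinase mutant libraries were above the other 4 libraries, and the tail mutant and empty vector overlapped.

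**Figure D1:**
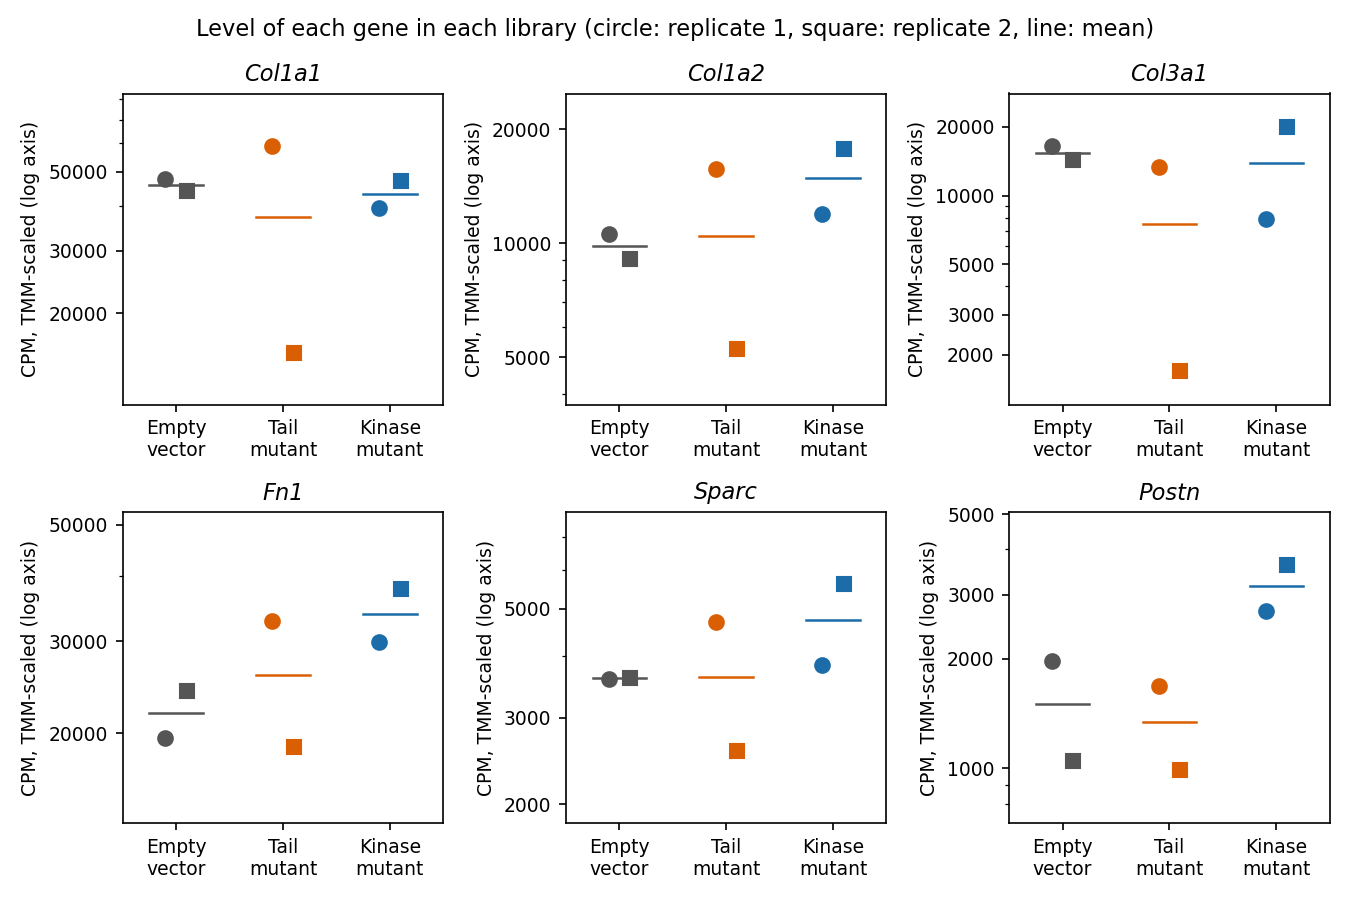
TMM-scaled CPM (vertical, log axis) of each gene in the 6 libraries, by group; circles are replicate 1, squares replicate 2 and lines the group mean. Tail mutant replicate 2 is the lowest library in all 6 panels, and kinase mutant replicate 2 the highest in 5, all but Col1a1.

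Ordered by library, the 6 genes moved together in part. Tail mutant replicate 2 was the lowest library for 6 of 6 genes, against 26% of all tested genes and 35% of the 80 tested genes with a mean of at least 1000 CPM. Here and below, those 80 abundant genes include the 6 genes themselves. Scaled by the total count alone it was the lowest for 5, since Postn then stood at 1071 CPM there and at 1057 CPM in empty vector replicate 2. Kinase mutant replicate 2 was the highest library for 5 of 6 genes, under TMM and the 3 other scalings tried, against 14% of all tested genes and 45% of the 80 abundant ones. For Col1a1 the highest was tail mutant replicate 1.

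The replicates of the tail mutant were farther apart in the collagen genes than in the glycoprotein genes. On the log2 scale replicate 2 minus replicate 1 was -1.93 for Col1a1, -1.58 for Col1a2 and -2.98 for Col3a1. It was -0.80 for Fn1, -0.87 for Sparc and -0.77 for Postn. A gap at least that low was seen in 1.79%, 2.71% and 0.409% of tested genes for the 3 collagen genes, and in 10.1%, 8.98% and 10.7% for the 3 glycoproteins. The 3 collagen genes were thus at least 2-fold lower in tail mutant replicate 2, as were 7.05% of all tested genes and 10% of the 80 abundant ones. That 10% is 8 genes, the 3 collagen genes among them. Among those 80 genes no other gap was as low as that of Col3a1.

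In the other groups the gaps of the 3 collagen genes were smaller than in the tail mutant, while that of Postn was larger in empty vector. In the kinase mutant replicate 2 was higher for all 6 genes, by 1.35 for Col3a1, which was at least 2-fold, as for 3.07% of tested genes, and by 0.25 to 0.57 for the other 5. Of the 80 abundant genes, 5% were at least 2-fold higher, Col3a1 included. In empty vector the gap ran from -0.22 to 0.30 for 5 genes and was -0.91 for Postn, a gap that 2.91% of tested genes matched or passed.

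**Figure D2:**
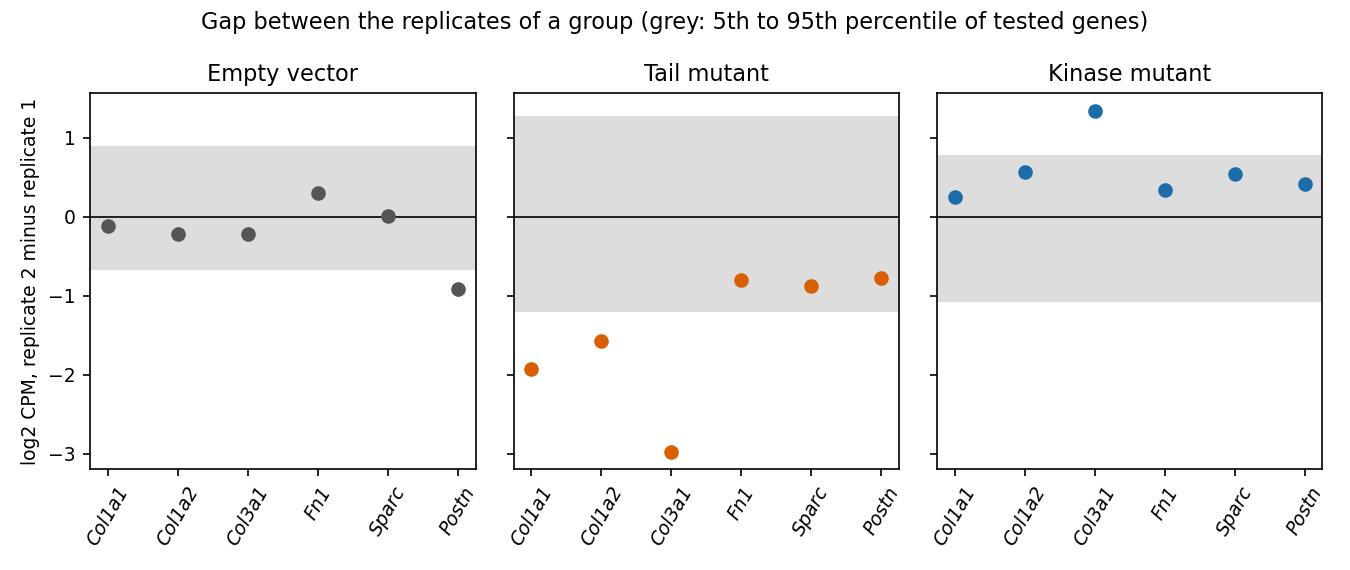
Difference in log2 CPM between replicate 2 and replicate 1 (vertical) of each gene (horizontal), 1 panel per group; the grey band spans the 5th to 95th percentile of tested genes. The 3 collagen genes fall below the band in the tail mutant (-1.93, -1.58 and -2.98), Col3a1 lies above it in the kinase mutant (1.35) and Postn below it in empty vector (-0.91).

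The comparison of each mutant with empty vector asks how the matrix genes differ in cells with that mutant. For the tail mutant, edgeR's quasi-likelihood test called 0 of 6 genes at a Benjamini-Hochberg adjusted p below 0.05, and none had an unadjusted p below 0.05. DESeq2 and limma-voom called 0 of 6 too, also with none at an unadjusted p below 0.05. Over all tested genes edgeR called 0.00818%, DESeq2 1.97% and limma-voom 0%, and edgeR had 8.56% at an unadjusted p below 0.05. DESeq2 was run without the filter on low counts. Here and below its shares are of the genes it gave an adjusted p, 12864 against empty vector and 14184 between the mutants. The median log2 fold change was -0.08 over the 6 genes and 0.01 over all tested genes, with 3 of the 6 above 0 and 3 below. Both mutants are set against the same empty vector libraries.

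Among the collagen genes, the Col1a1 mean was 37347 ± 30904 CPM for the tail mutant against 45990.4 ± 2556 CPM for empty vector (SD, n = 2). The log2 fold change was -0.30, with a 95% interval from -1.78 to 1.18 and an edgeR adjusted p of 0.920. For Col1a2 it was 0.09 (interval -1.20 to 1.38). For Col3a1, the gene with the largest difference of the 6, it was -1.04 (interval -3.32 to 1.24) with an edgeR adjusted p of 0.800. The interval of Col3a1 thus ran from far below to above the empty vector level. Its 2 tail mutant libraries were below both empty vector libraries, as in 19.7% of all tested genes and 5% of the 80 abundant ones.

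Among the glycoproteins the log2 fold change was 0.24 for Fn1 (95% interval -0.67 to 1.16), 0.01 for Sparc (-0.86 to 0.88) and -0.17 for Postn (-1.16 to 0.81). The 6 edgeR adjusted p-values ran from 0.800 to 0.997. The intervals were wide beside those of most genes, since the median standard error was 0.47 over the 6 genes and 0.26 over all tested genes.

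The tail mutant libraries taken singly gave opposite pictures. Without replicate 2 the log2 fold change was 0.37 for Col1a1, 0.68 for Col1a2, 0.59 for Fn1, 0.38 for Sparc and 0.16 for Postn, all above 0, and -0.21 for Col3a1. Without replicate 1 it was -1.57 for Col1a1, -0.91 for Col1a2, -3.19 for Col3a1, -0.21 for Fn1, -0.50 for Sparc and -0.61 for Postn, all below 0. In these fits the remaining library is assumed to vary like the other groups. The smallest edgeR adjusted p among them was 0.136, for Col1a1 without replicate 1, so no gene was called either way. Col3a1 alone kept its direction. The Postn difference also turned, to 0.36, without empty vector replicate 1, and that of Col1a2 to -0.0146 without empty vector replicate 2.

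**Figure D3:**
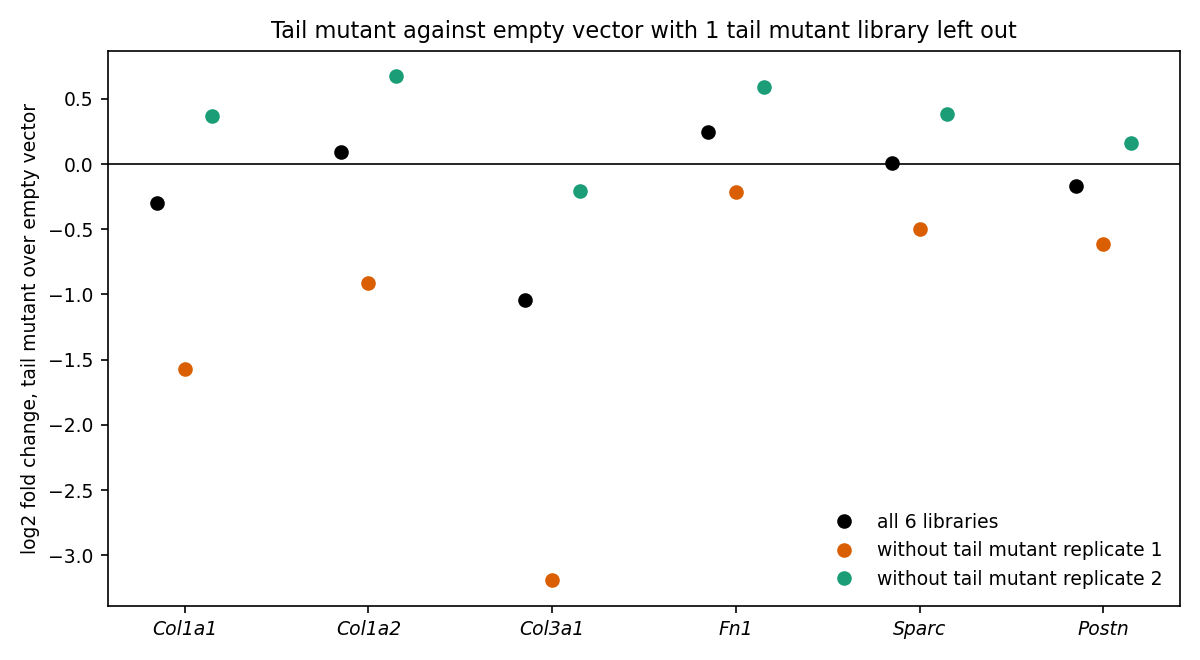
Log2 fold change of the tail mutant over empty vector (vertical) for each gene, in edgeR with all 6 libraries (black) and with 1 tail mutant library left out (orange, green). Without replicate 1 all 6 values lie below 0, and without replicate 2 all but Col3a1 (-0.21) lie above 0.

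For the kinase mutant against empty vector, edgeR called 0 of 6 genes, with 1 at an unadjusted p below 0.05, Postn. DESeq2 and limma-voom also called 0 of 6, each with Postn alone at an unadjusted p below 0.05. Here and below, shares of all genes at an unadjusted p below 0.05 were counted for edgeR only. Over all tested genes edgeR called 0.00818%, DESeq2 2.82% and limma-voom 0%, and edgeR had 10.8% at an unadjusted p below 0.05. The median log2 fold change was 0.49 over the 6 genes and -0.01 over all tested genes, with 4 of the 6 above 0. Both kinase mutant libraries were higher than both empty vector libraries for 4 genes, Col1a2, Fn1, Sparc and Postn. This order was seen in 24.2% of all tested genes and in 55% of the 80 abundant ones, so among abundant genes it was common. Scaled by the total count alone, which lowers the median log2 fold change of all genes by 0.16, it held for 2 genes, Fn1 and Postn, and Col1a1 was then lower in both kinase mutant libraries.

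Postn had the largest difference, the kinase mutant averaging 3167 ± 640.0 CPM and empty vector 1506.5 ± 652 CPM (SD, n = 2). The kinase mutant level was 2.10-fold that of empty vector, a log2 fold change of 1.07 ± 0.41 (SE) with a 95% interval from 0.08 to 2.07, higher in 2 of 2 libraries. It had an unadjusted p of 0.0387 and did not pass after Benjamini-Hochberg adjustment in edgeR (0.445). Its adjusted p over the alternatives lay between 0.143, with DESeq2 and 0.996, in edgeR without empty vector replicate 2. The difference leaned on the lower of the empty vector libraries, since it was 0.68 without empty vector replicate 2 and 1.60 without replicate 1.

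For Fn1 the log2 fold change was 0.63 (95% interval -0.29 to 1.55) with an edgeR adjusted p of 0.580, the kinase mutant averaging 33817 ± 5594 CPM and empty vector 21854 ± 3185 CPM (SD, n = 2). Sparc differed by 0.39 (interval -0.49 to 1.27), which became 0.09 without kinase mutant replicate 2. For the collagen genes the differences were 0.60 for Col1a2 (interval -0.70 to 1.89), -0.09 for Col1a1 (-1.56 to 1.39) and -0.14 for Col3a1 (-2.40 to 2.12). The Col1a2 value became 0.28 without kinase mutant replicate 2. That of Col3a1 was 0.38 without kinase mutant replicate 1 and -0.97 without replicate 2, and that of Col1a1 turned to 0.03 without kinase mutant replicate 1.

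Whether cells with the tail mutant differ from those with the kinase mutant was asked directly. Between tail and kinase mutant edgeR called 0 of 6 genes and 0% of all tested genes, with 1 of 6, Postn, and 3.67% of all at an unadjusted p below 0.05. DESeq2 and limma-voom called 0 of 6 as well, with Postn at an unadjusted p below 0.05 in each, and they called 0.0776% and 0% of all genes. All 6 log2 differences were below 0, with a median of -0.45 against 0.01 over all tested genes. The 6 genes share tail mutant replicate 2 as their lowest library, so their signs are not separate observations. The share of other genes below 0 was not counted. For Postn the tail mutant averaged 1338 ± 494 CPM and the kinase mutant 3167 ± 640.0 CPM (SD, n = 2). The log2 difference was -1.24 ± 0.41 (SE), with a 95% interval from -2.24 to -0.24. The unadjusted p was 0.0224 and the Benjamini-Hochberg adjusted p 0.926 in edgeR, and the alternatives gave adjusted values from 0.186 to 1. Both of the tail mutant libraries had less Postn than either kinase mutant library, an order seen in 14.8% of all tested genes and in 21.2% of the 80 abundant ones.

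For the other 5 genes the tail and kinase mutant libraries overlapped. Their log2 differences ran from -0.90 for Col3a1 (95% interval -3.17 to 1.38) to -0.21 for Col1a1 (-1.69 to 1.26). Without tail mutant replicate 2 these differences came to 0.45 for Col1a1, 0.08 for Col1a2, -0.07 for Col3a1, -0.04 for Fn1 and -0.01 for Sparc, while that of Postn was -0.91. Without kinase mutant replicate 2 that of Col3a1 was -0.07 and that of Sparc -0.08. The difference of Postn was thus the largest of the 6 when tail mutant replicate 2 was left out.

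With the libraries of both mutants averaged against empty vector, edgeR, DESeq2 and limma-voom called 0 of 6 genes, with 0 at an unadjusted p below 0.05 in each. Over all genes edgeR called 0.0327%, DESeq2 3.42% and limma-voom 0.00818%, and edgeR had 11.4% at an unadjusted p below 0.05. The log2 fold changes ran from -0.59 for Col3a1 to 0.45 for Postn, and the libraries overlapped for all 6 genes. All 4 mutant libraries were above both empty vector libraries in 11.3% of all tested genes and below them in 13%. Among the 80 abundant genes the shares were 31.2% above and 1.25% below.

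**Figure D4:**
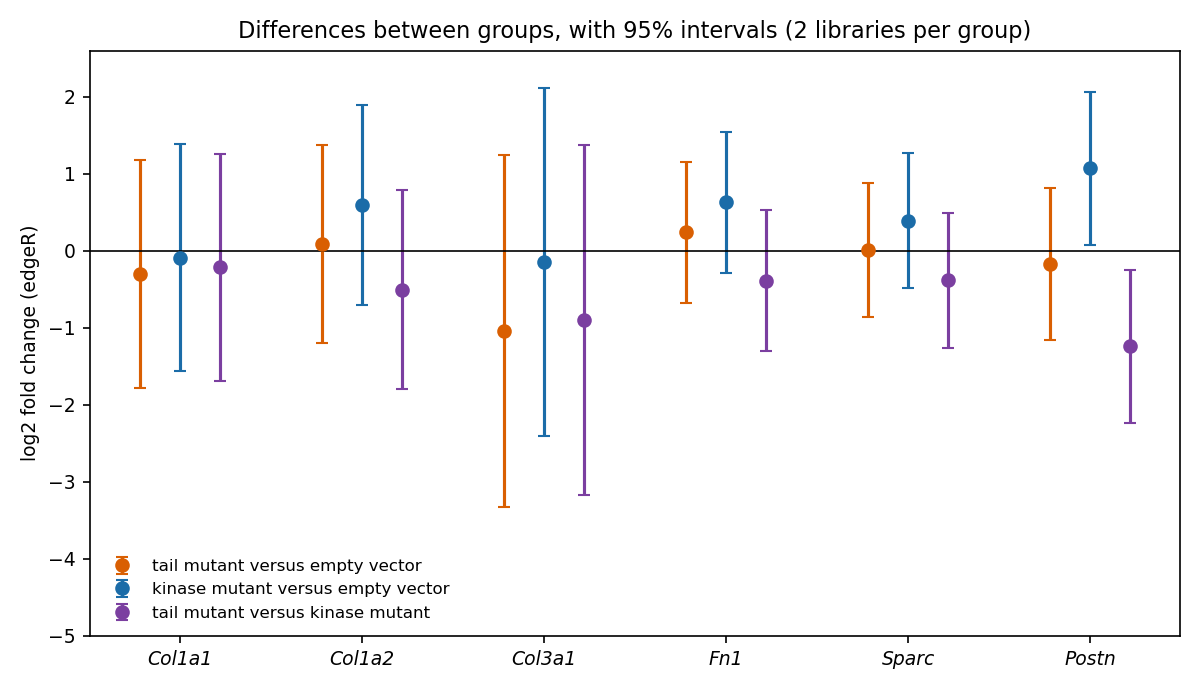
Log2 fold change with its 95% interval from edgeR (vertical) for each gene in 3 comparisons: tail mutant over empty vector (orange), kinase mutant over empty vector (blue) and tail over kinase mutant (purple). The unadjusted intervals exclude 0 for Postn only, from 0.08 to 2.07 for the kinase mutant over empty vector and from -2.24 to -0.24 for tail over kinase mutant.

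Ratios of counts within a library need no scaling. The ratio of Col1a1 to Col1a2, the chains of collagen I, was 4.54 and 4.86 in empty vector, 3.78 and 2.96 in the tail mutant, and 3.32 and 2.65 in the kinase mutant. Both empty vector libraries were above all 4 mutant libraries. The mean log2 ratio was 0.49 lower in the tail mutant and 0.66 lower in the kinase mutant than in empty vector, beside an SD over replicates of 0.0695, 0.25 and 0.23 in empty vector, tail and kinase mutant. The ratio of Col1a1 to another gene was lower in all 4 mutant libraries for 6.68% of the other tested genes and for 27.8% of the 79 other abundant ones. This order is thus not particular to the pair of collagen I chains. The ratio of reads is not one of transcripts, since the transcripts differ in length.

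The ratio of Col1a1 to Col3a1 was 2.89 and 3.10 in empty vector, 4.45 and 9.17 in the tail mutant, and 5.02 and 2.34 in the kinase mutant. Both tail mutant values were above both empty vector values, while the kinase mutant libraries lay on either side. The tail mutant order was seen for 2.6% of the other tested genes paired with Col1a1. Of the 79 other abundant ones it was seen for 1 (1.27%), which is Col3a1 itself. In tail mutant replicate 1, which had the highest Col1a1 level, this ratio was also above empty vector, so Col3a1 was low relative to Col1a1 in both replicates.

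The ratio of Fn1 to Col1a1 was 0.410 and 0.546 in empty vector, 0.554 and 1.22 in the tail mutant, and 0.754 and 0.805 in the kinase mutant. All 4 mutant libraries were above both empty vector libraries, tail mutant replicate 1 by a narrow margin. This is the same order as for Col1a1 to Col1a2, read the other way round, with the same shares of other genes paired with Col1a1, 6.68% of those tested and 27.8% of the 79 abundant ones. In tail mutant replicate 2 Fn1 had more counts than Col1a1, in the other 5 libraries fewer. No test was run on the ratios.

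**Figure D5:**
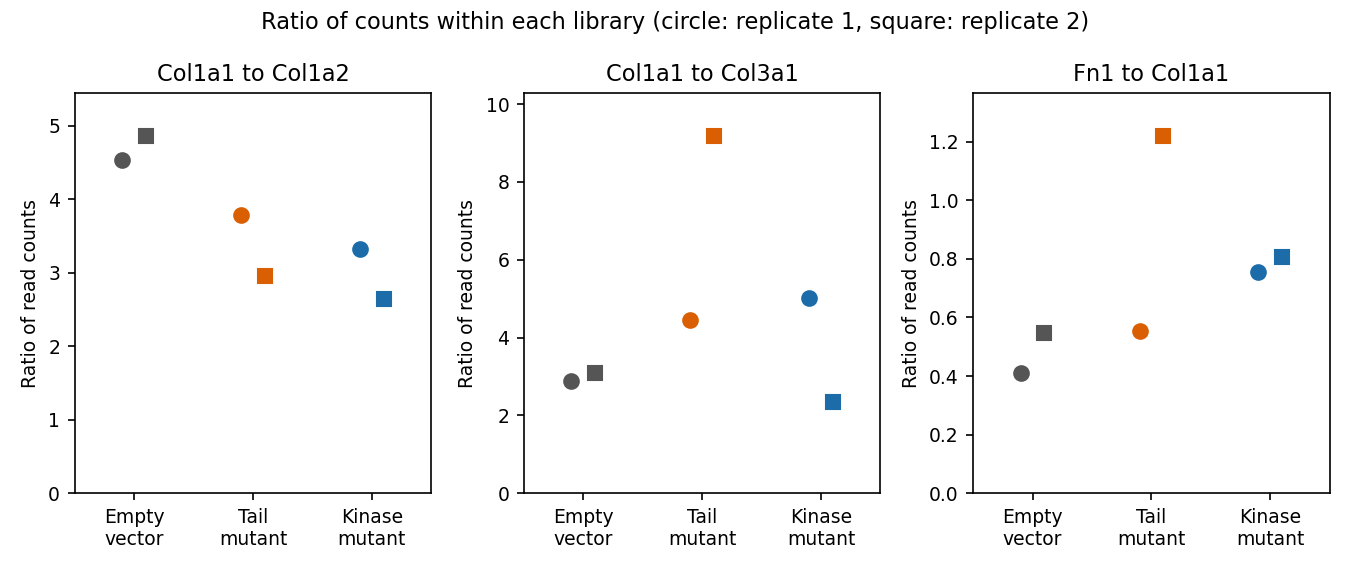
Ratio of read counts within each library (vertical, from 0) for 3 pairs of genes, by group; circles are replicate 1 and squares replicate 2. Col1a1 to Col1a2 is 4.54 and 4.86 in empty vector and between 2.65 and 3.78 in the 4 mutant libraries, and Fn1 to Col1a1 is lowest in empty vector.

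The genes also differed in how alike their patterns were. Likeness was taken as the root mean square difference of log2 CPM, centred on each gene's mean over the 6 libraries, so that 0 means the same pattern. Fn1 and Sparc were the closest pair, at 0.16, and Col1a2 and Sparc followed at 0.24. Sparc ranked 68 among the 12220 other genes by its likeness to Fn1, so genes outside the 6 were closer still. Col1a1 was closest to Col1a2, at 0.31, which ranked 184 among the other genes. Col3a1 was the farthest from the rest, from 0.65 to Col1a1 up to 1.05 to Fn1. This measure grows with the spread of a gene, and Col3a1 varied most, so its distances do not show a different pattern. By likeness to Col3a1 among the 12220 other genes, Col1a1 ranked 96, Col1a2 266, Sparc 802, Postn 1348 and Fn1 1902. Postn was closest to Col1a2, at 0.41.

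The SD of log2 CPM over the 6 libraries was 1.32 for Col3a1, 0.74 for Postn, 0.68 for Col1a1 and 0.63 for Col1a2, and 0.41 for Fn1 and 0.38 for Sparc. Its median was 0.28 over all tested genes and 0.36 over the 80 abundant ones, none of which varied more than Col3a1.

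Averaged over the 6 genes, the centred pattern was 0.10 and -0.09 in empty vector, 0.35 and -1.14 in the tail mutant, and 0.10 and 0.68 in the kinase mutant. The 2 other genes closest to it were ENSRNOG00000037604, at 0.066, and ENSRNOG00000004158, at 0.0813. The former stood at 34.7 and 30.7 CPM in empty vector, at 38.9 and 13.5 CPM with the tail mutant and at 32.3 and 54.2 CPM with the kinase mutant. The latter stood at 13.6 and 12.7 CPM, 16.7 and 5.51 CPM, and 15.8 and 20.9 CPM in the same order. Their names were not looked up. The groups and the 6 libraries are shared by all these genes, so likeness describes these libraries.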

How the data were processed

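PolyA RNA of 6 H9c2 libraries was sequenced, 2 per group by the sample titles. The authors deposited raw read counts per Ensembl rat gene, 1 file per library. For these counts the submitters' processing notes list Trimmomatic 0.33, STAR 2.4.0, HTSeq 0.6.1p1 and the build Rnor_5.0. Strand setting and annotation release: not given in the sources used here, so whether reads of a gene and its antisense partner were told apart is not known. Rows naming no gene (5 per file) entered neither library sizes nor tests: reads in no gene were 15.4% to 17.5%, alignments not unique 27.3% to 31.5% and ambiguous reads under 0.02% of each file's total.

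The tests used edgeR 4.0.16 in R 4.3.3: filterByExpr by group (minimum count 10, total 15), TMM, a robust quasi-likelihood fit over all 6 libraries with group as the only term (3 residual degrees of freedom), and Benjamini-Hochberg adjustment over 12221 genes, called below 0.05. The SE is the log2 fold change over the square root of F, and its 95% interval uses the moderated degrees of freedom. Log2 CPM had a prior count of 2. Alternatives were DESeq2 1.42.0, limma-voom (limma 3.58.1), other scalings, no filter, the compared groups alone, a replicate block and each library left out. Scripts were tested on simulated data. Replicates differed beyond sampling noise (mean chi-square per gene of 59.2, 176 and 93.2 in empty vector, tail and kinase mutant, against about 1 by sampling), so each library counts once. That mean is of counts without TMM and is weighted towards abundant genes, the 6 genes among them. It does not describe a typical gene. Named genes were the 6 genes and the 2 genes of the closest pattern. The genes, lists and comparisons were chosen with earlier results of these data known. The class of 80 genes with a mean of at least 1000 CPM and the counts of non-overlapping libraries were added after the data were examined.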

Additional observations from a re-analysis of the deposited data

How the results depend on the processing

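In each comparison 0 of the 6 genes were called under every alternative run (14 per comparison of 2 groups and 13 for both mutants against empty vector). Of 330 log2 fold changes recomputed for the 6 genes, 311 kept their direction and 19 turned, 14 of these on leaving out a library. Against empty vector in the tail mutant, Col1a2 turned to -0.11 with limma-voom. Sparc turned to -0.0580 with limma-voom, -0.0231 with upper quartile scaling, -0.0479 with total counts and -0.00582 with the replicate block. Leaving out each library, tail mutant against empty vector ranged from -1.57 to 0.37 for Col1a1, -0.91 to 0.675 for Col1a2, -0.215 to 0.59 for Fn1, -0.50 to 0.38 for Sparc and -0.61 to 0.36 for Postn. Kinase mutant against empty vector ranged from -0.22 to 0.0288 for Col1a1 and -0.97 to 0.38 for Col3a1, tail against kinase mutant from -1.48 to 0.45 for Col1a1 and -1.50 to 0.0794 for Col1a2, and both mutants against empty vector from -0.83 to 0.14 for Col1a1, -0.16 to 0.64 for Col1a2 and -0.0529 to 0.39 for Sparc. The cause was not tested.

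The summed level of the 6 genes in empty vector was 98178 CPM under TMM and 102795 CPM with total counts. The genes higher in both kinase mutant than both empty vector libraries went from 4 to 2 with total counts and those lower from 0 to 1. With total counts the shares of all tested genes were not counted. Leaving out a library, a weaker criterion, the genes not overlapping ranged from 0 to 4 higher (4 without tail mutant replicate 2) and 1 to 6 lower (6 without its replicate 1) for the tail mutant against empty vector, 4 to 5 higher and 0 to 2 lower for the kinase mutant against empty vector, and 0 to 1 higher and 1 to 6 lower (6 without tail mutant replicate 1, 5 without kinase mutant replicate 1) for tail against kinase mutant. The counts of 6 lower only restate that tail mutant replicate 2 was the lowest library for 6 of 6 genes. The share of all tested genes was not counted with a library left out, so none of these leave-out counts can be set against other genes. The mean pairwise difference in pattern was 0.56, and 0.41 to 0.59 on leaving out a library.

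The labels do not say whether the replicate numbers pair the libraries. Same-numbered deviations correlated at 0.12, -0.13 and -0.35 between empty vector and tail, empty vector and kinase, and tail and kinase mutant. These values run across genes, which are not independent, and rest on 1 difference per group, so they cannot decide on pairing. The replicate block called 0 of 6 genes in each comparison and 2 genes of all against empty vector in each mutant, where the fit without it called 1. DESeq2 called 254, 363 and 11 genes of all for the tail mutant against empty vector, the kinase mutant against empty vector and tail against kinase mutant, where edgeR called 1, 1 and 0, and 440 for both mutants against empty vector, where edgeR called 4. For the same comparisons edgeR without a filter called 9, 2, 0 and 49, with total counts 3, 1, 0 and 17, and limma-voom called 0, 0, 0 and 1. EdgeR called at most 20, 2, 0 and 12 on leaving out a library and 0 at the fewest in each, and 0 in each mutant against empty vector with the compared libraries alone. The counting error of the 6 genes was at most 0.699%, and each group had 2 libraries. What sets the width of their intervals was not tested.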
